A study of Homo sapiens with 12 samples.

Results

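The 63 protein-coding autosomal protocadherin genes are described here, out of 58174 genes in the tables. They were taken as every gene of biotype protein_coding whose name starts with PCDH and that does not lie on chromosome X or Y. The rule left out 3 genes on X or Y and 10 PCDH-named genes of another biotype. The members were 15 alpha, 16 beta and 22 gamma protocadherins, which lie side by side on the long arm of chromosome 5, and 10 non-clustered protocadherins (PCDH1, PCDH7, PCDH8, PCDH9, PCDH10, PCDH12, PCDH15, PCDH17, PCDH18 and PCDH20). RNA had been sequenced from 2 established human glioblastoma lines, LN229 and U251. Each line had been transfected with XRN2 siRNA (siXRN2), with a control siRNA (siNT) or without siRNA (mock), and each of the 6 groups held 2 libraries. RNA was taken 72 h after transfection. XRN2 is the nuclear 5′ to 3′ exoribonuclease that degrades the downstream RNA left when transcripts are cleaved at their 3′ end. LN229 was grown in DMEM and U251 in EMEM with more serum, so that line and medium cannot be told apart. The labels do not say that the 2 libraries of a group came from separate cultures, and p-values then measure only the spread between these libraries, which may be technical.

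Protocadherins are transmembrane cadherins that bind cells of the same kind to each other through like molecules. In the alpha and gamma clusters each gene is a large variable exon with its own promoter, spliced to 3 small constant exons that the whole cluster shares. The beta genes are single-exon genes without such a constant part. In neurons a random choice of variable exons gives each cell its own surface identity. In tumours, several clustered and non-clustered protocadherins are known to be silenced by DNA methylation.

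The shape of the alpha and gamma transcripts decides which reads can be given to 1 gene, so the splice junctions of those on which the results turn are shown first. In GENCODE 29 (GRCh38), all 22 gamma genes had a transcript whose variable exon was spliced to the same constant exon, which starts at position 141494807 of chromosome 5, and all 15 alpha genes one spliced to the exon starting at position 140978949. The last 30 bases of the variable exon, in lower case, differed between all 22 gamma and all 15 alpha genes, and the first 30 bases of the constant exon, in capitals, were the same within each cluster. Variable exons were 2397 to 2597 bases long in these gamma transcripts and 2355 to 3427 in these alpha transcripts.
PCDHGC3: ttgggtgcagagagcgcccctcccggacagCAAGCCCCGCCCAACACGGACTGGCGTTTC
PCDHGB2: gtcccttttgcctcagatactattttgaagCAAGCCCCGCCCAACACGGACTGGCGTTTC
PCDHGA9: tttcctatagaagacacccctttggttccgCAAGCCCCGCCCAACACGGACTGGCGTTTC
PCDHGC5: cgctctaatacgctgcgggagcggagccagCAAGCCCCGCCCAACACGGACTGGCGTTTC
PCDHA1: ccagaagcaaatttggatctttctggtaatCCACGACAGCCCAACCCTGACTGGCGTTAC
PCDHA3: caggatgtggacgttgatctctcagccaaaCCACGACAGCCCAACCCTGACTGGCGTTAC
The variable exons of these genes end at positions 141478546 (PCDHGC3), 141362556 (PCDHGB2), 141405376 (PCDHGA9), 141491700 (PCDHGC5), 140788684 (PCDHA1) and 140803591 (PCDHA3) of chromosome 5, all on the plus strand.

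Promoters of the clustered genes are known to share a conserved element with the letters CGCT at its core. RefSeq promoters (GRCh38.p14) were found for 55 of the 63 members. In the 60 bases from 90 to 31 before the start, the letters CGCT on the gene's strand stood in 42 of 47 clustered promoters (89.4%), in 1 of 8 non-clustered ones (12.5%) and in 18.1% of all 27305 promoters of the table. With either strand allowed, the shares were 89.4%, 37.5% and 31.4%. The window was chosen after the promoters had been looked at. PCDHA9, PCDHB5, PCDHB8, PCDHGA1 and PCDHGB2 lacked the letters in that window. PCDHB15, which differed strongly between the lines, and PCDHB10, which differed little, are shown over the 250 bases before their starts, chr5:141245145-141245394 and chr5:141192103-141192352, both on the plus strand and with each CGCT in capitals.
PCDHB15: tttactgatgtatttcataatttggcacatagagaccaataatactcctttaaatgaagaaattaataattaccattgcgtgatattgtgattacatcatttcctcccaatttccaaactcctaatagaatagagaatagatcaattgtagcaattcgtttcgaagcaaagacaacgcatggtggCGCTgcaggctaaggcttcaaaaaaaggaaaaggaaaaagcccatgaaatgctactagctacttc
PCDHB10: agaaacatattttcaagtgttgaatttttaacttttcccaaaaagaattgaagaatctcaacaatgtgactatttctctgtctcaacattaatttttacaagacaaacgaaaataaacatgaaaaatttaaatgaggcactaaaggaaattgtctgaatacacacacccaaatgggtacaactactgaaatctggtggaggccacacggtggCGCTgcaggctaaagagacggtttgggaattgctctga
The 60-base window is shown for 4 more genes whose values are given below, on the plus strand at chr5:141402688-141402747 for PCDHGA9, chr5:141475876-141475935 for PCDHGC3, chr5:140786050-140786109 for PCDHA1 and chr5:141177700-141177759 for PCDHB8.
PCDHGA9: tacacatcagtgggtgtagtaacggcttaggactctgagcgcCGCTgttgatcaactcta
PCDHGC3: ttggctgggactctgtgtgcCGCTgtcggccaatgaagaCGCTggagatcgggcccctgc
PCDHA1: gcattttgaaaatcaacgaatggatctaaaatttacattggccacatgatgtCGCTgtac
PCDHB8: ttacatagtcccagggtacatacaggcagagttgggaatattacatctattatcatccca
PCDHB15 and PCDHB10 both hold CGCT, and PCDHB8 lacks it in this window, which says nothing of what binds there.

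Libraries held 4846768 to 7469052 total exon reads. XRN2 itself had 33.5 and 25.6 CPM (reads scaled to library size by trimmed mean of M-values) in LN229 siXRN2, 202 and 243 in LN229 siNT and 229 and 235 in LN229 mock. In U251 it had 31.1 and 26.2 CPM in siXRN2, 144 and 134 in siNT and 138 and 143 in mock, so the knockdown labels held in both lines. The pairs of LN229 siNT and U251 mock libraries differed most, with a chi-square per gene of 17.8 and 24.7 against 1.70 to 7.14 for the other 4. That value does not say which library of a pair stood apart. Intron reads were 5.58% of gene reads in LN229 siNT replicate 1 and 8.76 to 9.55% in the other LN229 libraries. GFAP was at 2351 CPM in U251 mock replicate 2 and 4836 to 6903 CPM in the other U251 libraries. These 2 libraries were taken as the ones that stood apart. Summed glioma and astrocyte markers were at 3322 to 6444 CPM in LN229 and 9913 to 18144 CPM in U251, and 9 of 12 exceeded 1 CPM in each line. VIM was the largest part in LN229, while GFAP was at 1.05 to 4.31 CPM there and 2351 to 6903 CPM in U251. S100B went the other way, at 294 to 569 CPM in LN229 and 14.9 to 22.0 CPM in U251. Summed blood markers stayed at 0.351 to 1.60 CPM, with AIF1 and HBB among the markers at 0 in all libraries. Neuron markers summed to 430 to 550 CPM in LN229 and 190 to 290 CPM in U251, with ELAVL4 and STMN2 at 0. TUBB3 (215 to 283 CPM) and MAP2 (90.4 to 155 CPM) were the largest parts in LN229. Fibroblast markers summed to 444 to 594 CPM in LN229 and 2354 to 3976 CPM in U251. In the same order of lines, oligodendrocyte markers summed to 459 to 762 and 214 to 313 CPM. Epithelium markers summed to 57.0 to 122 and 20.1 to 31.6 CPM, and endothelium markers to 3.43 to 9.47 and 13.8 to 21.6 CPM.

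The tables give total exon reads and unique exon reads, those assigned to 1 gene alone. Over all genes, 86.0 to 88.3% of a library's exon reads were unique, while for the protocadherins the share was 46.8 to 55.9% in LN229 and 17.5 to 29.7% in U251. Summed over the 12 libraries, 26.8% of alpha, 10.4% of beta, 32.2% of gamma and 68.1% of non-clustered exon reads were unique. The beta genes share no exon with each other, yet most lie inside the span of unnamed genes annotated across the cluster. PCDHB5 and PCDHB8, wholly inside such spans, had 0 unique reads of 1658 and 2193 exon reads. PCDHB2, with 44.2% of its exon bases inside another gene, had 34.0% unique reads. PCDHB15, with 12.8% inside, had 90.1% unique reads, and PCDH1, PCDH7, PCDH10 and PCDH18, outside other genes, had 100% unique reads. PCDH20 on chromosome 13 lies with 96.4% of its exon bases inside the annotated gene AL592490.1, and 126 of its 7655 exon reads were unique. The library kit keeps no strand, so that reads of PCDH20 and of AL592490.1 cannot be told apart where they overlap.

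Within the alpha and gamma clusters, the kind of read depended on the place of the gene. Each gene spans from its variable exon to the shared constant exons, so that the first exon of a gene lies inside the spans of all genes before it. The 10 alpha genes nearest the 5′ end held 577 exon reads that lay within an exon and 11 exon-exon reads, which cross a splice junction. The other 5 alpha genes held 0 within an exon and 5 exon-exon reads. The first 10 gamma genes held 4768 reads within an exon and 204 exon-exon reads, and the other 12 held 1 within an exon and 1606 exon-exon reads. A low total for a gene from place 11 on is therefore a count of spliced reads and does not show that its variable exon was silent. Exon-exon reads were counted at every place, but genes differ in how many junctions are theirs alone, so they set a gene against itself between libraries rather than against other genes.

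**Figure D1:**
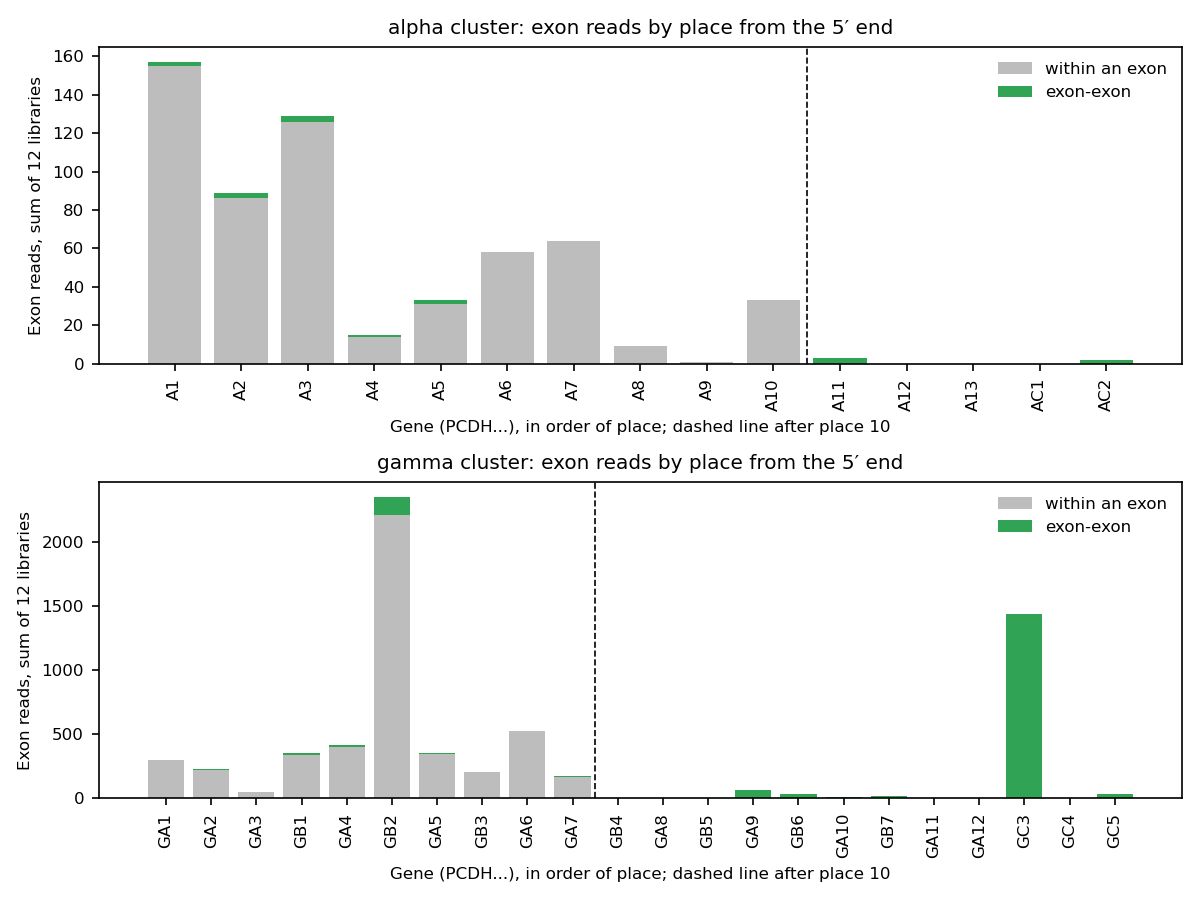
Exon reads summed over the 12 libraries (y axis) for each alpha gene (top) and gamma gene (bottom), in order of place from the 5′ end of the cluster. Grey bars are reads within an exon and green bars exon-exon reads. To the right of the dashed line, after place 10, the bars are green: 5 exon-exon reads in alpha and 1606 in gamma.

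Of the 63 members, 57 had at least 1 exon read, and PCDHA12, PCDHA13, PCDHAC1, PCDHGB4, PCDHGA8 and PCDHGA11 had 0 in all 12 libraries. The filter on low counts kept 38 members: 5 alpha, 15 beta, 11 gamma and 7 non-clustered. The other 25 had at most 53 exon reads over all 12 libraries. Among these were the C-type isoforms PCDHAC2, with 2 reads in 1 LN229 siNT library and 0 elsewhere, and PCDHGC4, with 2 reads in 1 LN229 siXRN2 library and 0 elsewhere. PCDH8, PCDH15 and PCDH17, 3 non-clustered members, had at most 3 reads in any library. The 6 genes with 0 reads all lie at place 11 or later of their cluster. The limit set by a count of 0 is 3 reads, or 0.381 to 0.605 CPM depending on the library, for counting error only, and for these 6 genes it limits the spliced reads counted there, not their expression.

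In the control libraries (siNT and mock together, 4 of each line) the protocadherins were mostly higher in LN229 than in U251. edgeR's quasi-likelihood test over all 14232 genes tested, with Benjamini-Hochberg adjustment at 0.05, called 37 of the 38 members, 35 higher and 2 lower in LN229, where 67.0% of all genes were called, 34.9% higher and 32.1% lower. Of these members, 18 passed the filter only through LN229 and 1, PCDHGA9, only through U251, so that their difference was largely fixed by the filter. Of the 19 that passed it in each line alone, 18 were called, 17 higher and 1 lower in LN229, where 32.2% of all genes that did so were higher and 32.0% lower. The median log2 fold change of these 19 was 1.99, against 0.03 over all tested genes. In 33 of the 38 members the 4 LN229 controls lay above all 4 U251 controls, in 2 below them, and in 3 (PCDH10, PCDHGA4 and PCDHGB3) the libraries overlapped. Over all tested genes, 30.9% had all LN229 controls above and 29.1% all below those of U251. In bulk RNA, fewer cells that express a gene and less RNA per cell cannot be told apart.

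**Figure D2:**
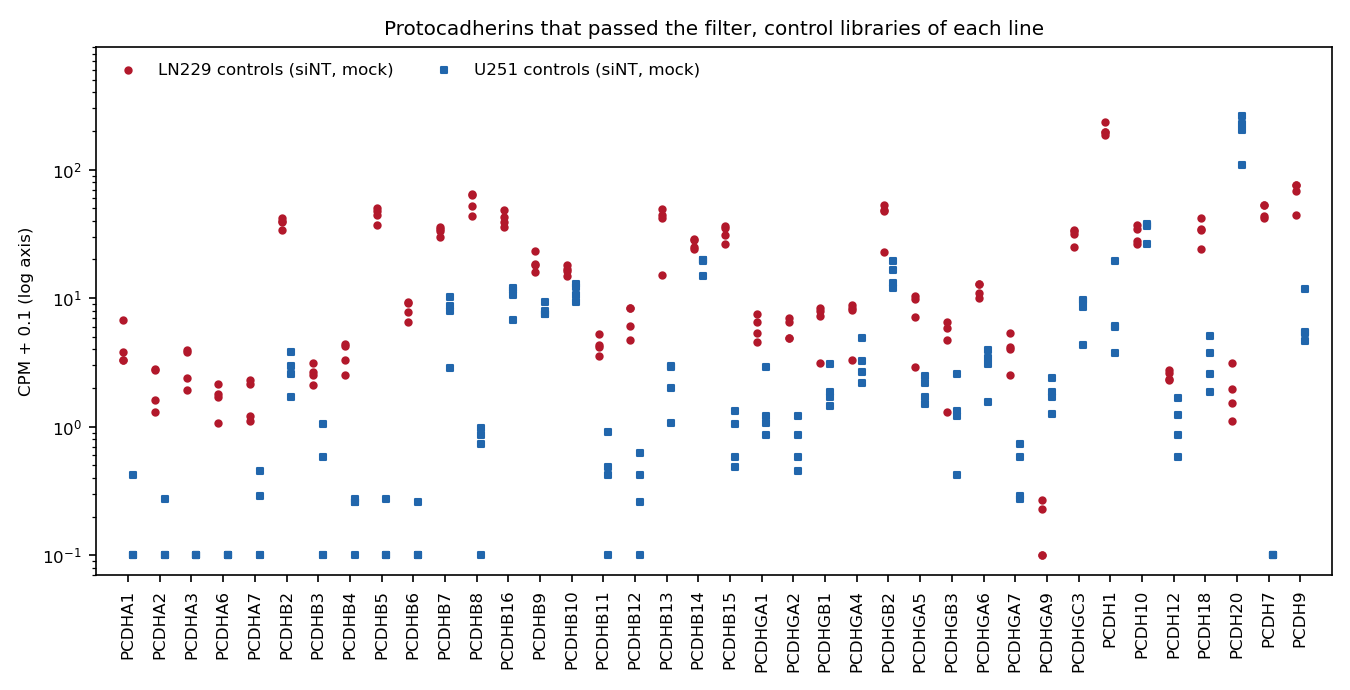
CPM plus 0.1 on a log axis for the 38 members that passed the filter, with red circles for the 4 LN229 control libraries and blue squares for the 4 U251 control libraries. LN229 lies above U251 for 33 members, while PCDHGA9 and PCDH20 lie lower in LN229 and PCDH10, PCDHGA4 and PCDHGB3 overlap.

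The alpha genes, which include the first variable exons of the whole locus, were close to absent in U251. PCDHA1 had 6.66 and 3.20 CPM in LN229 siNT and 3.20 and 3.68 in LN229 mock, against 0.318 and 0 CPM in U251 siNT and 0 in both U251 mock libraries. That is 101 reads in the 4 LN229 controls and 2 in the 4 U251 controls, a ratio of 47.2 with an exact 95% counting interval of 12.7 to 395. PCDHA3 had 1.82, 3.87, 3.68 and 2.28 CPM in the LN229 controls and 0 reads in every U251 library, and was at least 5.08-fold higher in LN229 against a floor of 3 reads per library. PCDHA6 was likewise at least 2.74-fold higher. The 5 alpha genes tested (PCDHA1, PCDHA2, PCDHA3, PCDHA6 and PCDHA7) all passed the filter only through LN229, which largely fixed that their LN229 libraries lay above those of U251. The summed alpha cluster was at 14.4 ± 1.12 CPM in LN229 and 0.259 ± 0.222 CPM in U251 controls (SD, n = 4 each), a log2 fold change of 6.06 (SE 0.33, edgeR adjusted p = 3.27e-09). The sum, too, passed the filter only through LN229, which largely fixed its direction. Its log2 fold change rests on few U251 reads, and was 7.27 without U251 mock replicate 1, 7.11 with mock libraries alone and 5.01 with siNT libraries alone. The alpha sum holds no reads within an exon of the genes from place 11 on.

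The beta genes were higher in LN229. The 7 that passed the filter in each line alone (PCDHB2, PCDHB7, PCDHB9, PCDHB10, PCDHB13, PCDHB14 and PCDHB16) were all called higher, where 32.2% of all such genes were. The 8 that passed only through LN229 (PCDHB3, PCDHB4, PCDHB5, PCDHB6, PCDHB8, PCDHB11, PCDHB12 and PCDHB15) were called higher too, as the filter largely fixed. The beta sum was 6.004-fold higher, at 371 ± 43.2 CPM in LN229 and 62.1 ± 11.6 CPM in U251 controls (SD, n = 4 each; log2 fold change 2.59, SE 0.13, edgeR adjusted p = 2.13e-09). The single genes differed by very unequal amounts. PCDHB5 had 37.1 and 47.5 CPM in LN229 siNT and 44.2 and 50.3 in LN229 mock, against 0 and 0.176 CPM in U251 siNT and 0 in both U251 mock libraries. With 1138 reads in LN229 controls and 1 in U251 controls, its ratio was 1063 with a counting interval of 190.5 to 42042. PCDHB8 had 43.6, 63.0, 51.7 and 64.2 CPM in LN229 controls, against 0.637, 0.881, 0.764 and 0 CPM in U251 controls. Its log2 fold change was 6.70 (SE 0.32, edgeR adjusted p = 1.15e-09), and 8.81 without U251 mock replicate 1.

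PCDHB14 and PCDHB10 lay at the other end of the beta cluster's range. PCDHB14 had 28.4, 28.6, 25.1 and 24.1 CPM in LN229 controls and 19.3, 19.6, 19.7 and 14.9 CPM in U251 controls. Its log2 fold change was 0.54 (SE 0.12, edgeR adjusted p = 0.00143). PCDHB10 differed by 0.57 (SE 0.13, edgeR adjusted p = 0.00127) and PCDHB9 by 1.25 (SE 0.15, edgeR adjusted p = 9.84e-06). The libraries of the lines did not overlap for these genes, and U251 thus held reads mainly in PCDHB14, PCDHB10, PCDHB16, PCDHB7 and PCDHB9, while PCDHB5 and PCDHB6 had 1 read each in its 4 controls. PCDHB2 and PCDHB15, the beta genes with many unique reads, differed by 3.79 and 5.35 on unique reads alone, against 3.90 and 5.49 on total exon reads. In that fit on unique reads, 13 of the 14 members tested were called, 11 higher and 2 lower in LN229. Over all genes, 66.7% were called in either direction. PCDH7 and PCDHA1 had at most 2 unique reads in any U251 library, and PCDHGA9 and PCDH20 at most 1 in any LN229 library. They passed the filter only through the other line, which largely fixed their direction. PCDHB2, PCDHB15, PCDHGB2 and PCDH12 had at most 12 unique reads in any U251 library. These too passed the filter only through LN229, which largely fixed that they were higher there.

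The gamma sum was 3.30-fold higher in LN229, at 130 ± 33.0 CPM in LN229 and 39.2 ± 7.40 CPM in U251 controls (SD, n = 4 each; log2 fold change 1.72, SE 0.17, edgeR adjusted p = 1.34e-06). Genes from place 11 on, PCDHGC3 and PCDHGA9 among them, entered this sum almost only by spliced reads. Over the 12 libraries, the first 10 gamma genes held 4972 exon reads and the other 12 held 1607. The 7 gamma members that passed the filter in each line alone were all called higher in LN229, where 32.2% of all such genes were. PCDHGA2, PCDHGA7 and PCDHGB3 passed only through LN229 and were called higher, and PCDHGA9 passed only through U251 and was called lower. PCDHGB2, with the most gamma exon reads as counted, had 22.6, 47.2, 48.8 and 52.7 CPM in LN229 controls and 13.1, 16.6, 19.5 and 11.9 CPM in U251 controls. Its log2 fold change was 1.48 (SE 0.21, edgeR adjusted p = 5.07e-05). LN229 siNT replicate 1 was the lowest of its line, and still above all U251 controls. PCDHGC3, a C-type isoform that is known to be expressed outside the random choice of variable exons, had 25.01, 33.3, 31.2 and 33.6 CPM in LN229 controls and 9.55, 8.45, 9.36 and 4.20 CPM in U251 controls, with a log2 fold change of 1.99 (SE 0.20, edgeR adjusted p = 1.15e-06). PCDHGA9 had 0, 0.168, 0 and 0.127 CPM in LN229 controls and 1.59, 2.29, 1.15 and 1.78 CPM in U251 controls. With 2 reads in LN229 and 40 in U251 controls, the ratio of U251 to LN229 was 21.4, with a counting interval of 5.55 to 183. Of the gamma members, PCDHGB3 rested most on single libraries, with a log2 fold change of 1.83 (edgeR adjusted p = 0.00629) that was 0.99 (edgeR adjusted p = 0.127) without LN229 siNT replicate 2.

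Exon-exon reads were assigned to the gamma genes in different shares in the lines. Over the 6 LN229 libraries, 1144 of 1387 gamma exon-exon reads were assigned to PCDHGC3 (82.5%, 95% Wilson interval 80.4 to 84.4%), 111 to PCDHGB2 (8.003%, 6.69 to 9.55%) and 3 to PCDHGA9 (0.216%, 0.0736 to 0.634%). Over the 6 U251 libraries, 295 of 423 were assigned to PCDHGC3 (69.7%, 65.2 to 73.9%), 32 to PCDHGB2 (7.57%, 5.41 to 10.48%) and 65 to PCDHGA9 (15.4%, 12.2 to 19.1%). By library, PCDHGA9 took 0 to 0.431% in LN229 and 9.52 to 24.4% in U251, and the 6 U251 libraries lay above all 6 LN229 libraries. PCDHGC5 took 12 reads in LN229 and 20 in U251, PCDHGB6 31 and 2, PCDHGA10 12 and 0, and PCDHGB7 17 and 0. The exon-exon reads of PCDHGC3 cannot all be placed at the junction shown above, because 7 of its 9 annotated junctions belong to it alone while nearly all other gamma genes have 1 of their own. Its share is therefore not comparable with those of the other genes, only between libraries. In a fit on exon-exon reads of 11916 genes, chosen after the pattern of reads by place was seen, 8 of the 9 members tested were called, 6 higher and 2 lower in LN229, where 57.4% of all genes were called. PCDHGA9 had a log2 fold change of -4.06 (SE 0.64, edgeR adjusted p = 1.02e-04) there, PCDHGC3 of 2.01 (SE 0.20, edgeR adjusted p = 1.12e-06) and PCDHGB2 of 1.88 (SE 0.44, edgeR adjusted p = 0.00215). PCDH1, PCDH7, PCDH9 and PCDH18 had at most 5 exon-exon reads in any U251 library, and PCDHGB2 at most 12. PCDHGA9 and PCDH20 had at most 1 in any LN229 library. These members passed the filter only through the other line, which largely fixed their direction.

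**Figure D3:**
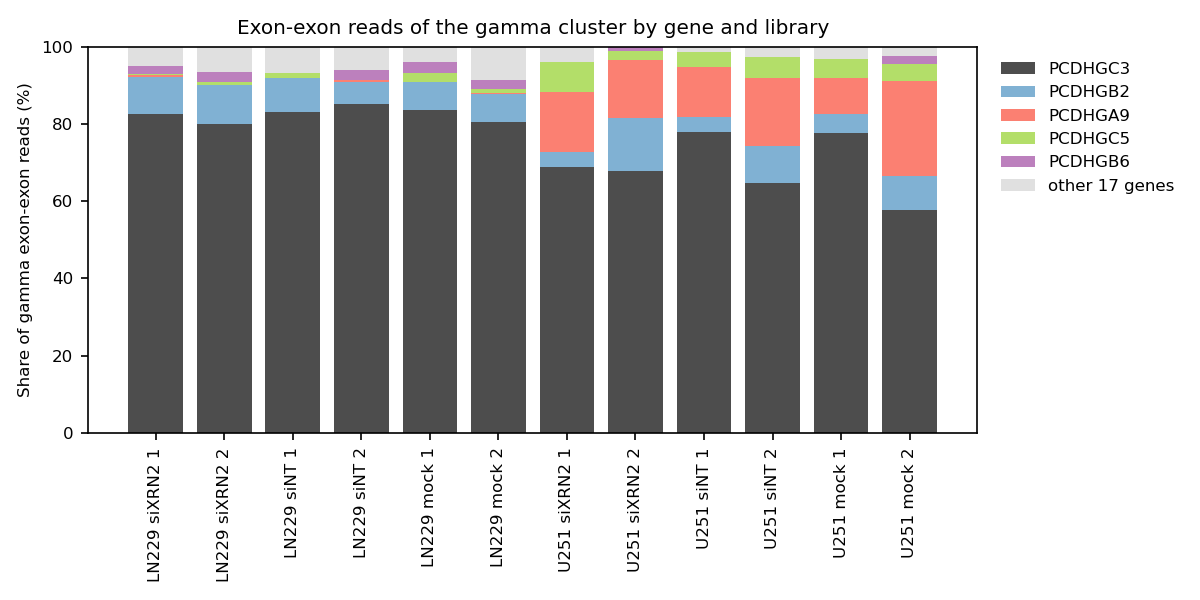
Share of the gamma cluster's exon-exon reads (y axis, percent) assigned to each gene, 1 bar for each of the 12 libraries. PCDHGC3 is the largest part of every bar, and PCDHGA9 takes 9.52 to 24.4% in U251 and 0 to 0.431% in LN229.

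The non-clustered protocadherins differed in both directions. PCDH7, which is known from the brain and from heart development, had 41.8 and 52.7 CPM in LN229 siNT and 43.5 and 53.4 in LN229 mock, against 0 reads in all 6 U251 libraries, and was at least 83.5-fold higher in LN229 controls. It passed the filter only through LN229, which largely fixed that direction. PCDH1, an adhesion protein also known from airway epithelium, had 195, 184, 195 and 233 CPM in LN229 controls and 3.66, 5.81, 5.92 and 19.5 CPM in U251 controls. Its log2 fold change was 4.68 (SE 0.28, edgeR adjusted p = 5.66e-08). PCDH20 had 1.009, 1.85, 1.44 and 3.05 CPM in LN229 controls and 205, 263, 226 and 108 CPM in U251 controls, with a log2 fold change of -6.73 (SE 0.32, edgeR adjusted p = 3.62e-09). Its unique reads numbered 0 in the 4 LN229 controls and 22, 22, 22 and 12 in the U251 controls, at least 5.42-fold lower in LN229 against a floor of 3 reads per library. PCDH1 and PCDH20 thus differed in opposite directions, with no overlap of the lines for either.

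PCDH9 and PCDH18 were higher in LN229 too. PCDH9, a long gene expressed in brain, had a log2 fold change of 3.33 (SE 0.23, edgeR adjusted p = 4.31e-08) and PCDH18 one of 3.46 (SE 0.19, edgeR adjusted p = 3.55e-09). PCDH12, a protocadherin of endothelium known as VE-cadherin-2, was low in both lines, with a mean of 2.41 CPM in LN229 and 0.989 CPM in U251 controls and a log2 fold change of 1.28 (SE 0.37, edgeR adjusted p = 0.00739). It passed the filter only through LN229, which largely fixed that direction. PCDH10, known in the brain for axon growth and methylated in many tumours, had 26.2, 34.4, 27.5 and 36.8 CPM in LN229 controls and 36.9, 36.6, 37.5 and 26.3 CPM in U251 controls. It was the 1 tested member not called, at -0.13 (SE 0.17, edgeR adjusted p = 0.515).

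Per length, the order of the members differed between the lines. In LN229 controls, PCDH1 came first at 34.1 ± 3.62 RPKM (total exon reads per kilobase of exon, scaled to library size), before PCDHB8 at 20.3 ± 3.58 and PCDHB5 at 13.1 ± 1.66 (SD, n = 4). PCDHB2, PCDHGB2, PCDHB7, PCDHB16, PCDHB15 and PCDHB13 followed at 9.38 to 7.41, within each other's spread. In U251 controls, PCDH20 came first at 42.0 ± 13.8, before PCDHB14 at 3.80 ± 0.483, PCDHB10 at 3.38 ± 0.479, PCDH10 at 3.38 ± 0.528 and PCDHGB2 at 3.20 ± 0.721, which lay within each other's spread. Values of PCDHGC3 and other gamma genes from place 11 on hold spliced reads almost alone and cannot be set in this order. Non-clustered genes took 42.8% of all protocadherin CPM in LN229 controls and 71.5% in U251 controls, beta genes 41.2% and 17.5%, gamma genes 14.4% and 10.997%, and alpha genes 1.61% and 0.0729%. PCDH20 alone, whose reads cannot be told from those of AL592490.1, made up 56.3% in U251 controls and 0.204% in LN229 controls, and without it the non-clustered share was 42.7% in LN229 and 34.7% in U251. The alpha and gamma shares leave out reads within an exon of genes from place 11 on.

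XRN2 siRNA changed no protocadherin past the threshold in either line. Of the 38 members, edgeR's quasi-likelihood test called 0 in LN229 against siNT, where 3.16% of all genes were called, 0 in LN229 against mock (1.29%), 0 in U251 against siNT (0.00703%) and 0 in U251 against mock (0.0492%). At an unadjusted p under 0.05 the counts were 1, 5, 1 and 8 members, and DESeq2 called 1, 0, 0 and 0. Without LN229 siNT replicate 2, edgeR called 5 members against siNT in LN229, and without U251 mock replicate 1 it called 4 against mock in U251. Each of these fits leaves 1 control library, the one that stood apart from its partner, and assumes that it varies like the other groups. The comparisons against siNT and against mock share the siXRN2 libraries. The difference between the lines' responses was called for 0 members and 0% of all genes, with 1 member at an unadjusted p under 0.05 and 0 in DESeq2. The median log2 fold change against siNT was -0.03 over the members and 0.00 over all tested genes in LN229, and 0.00 over both in U251.

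**Figure D4:**
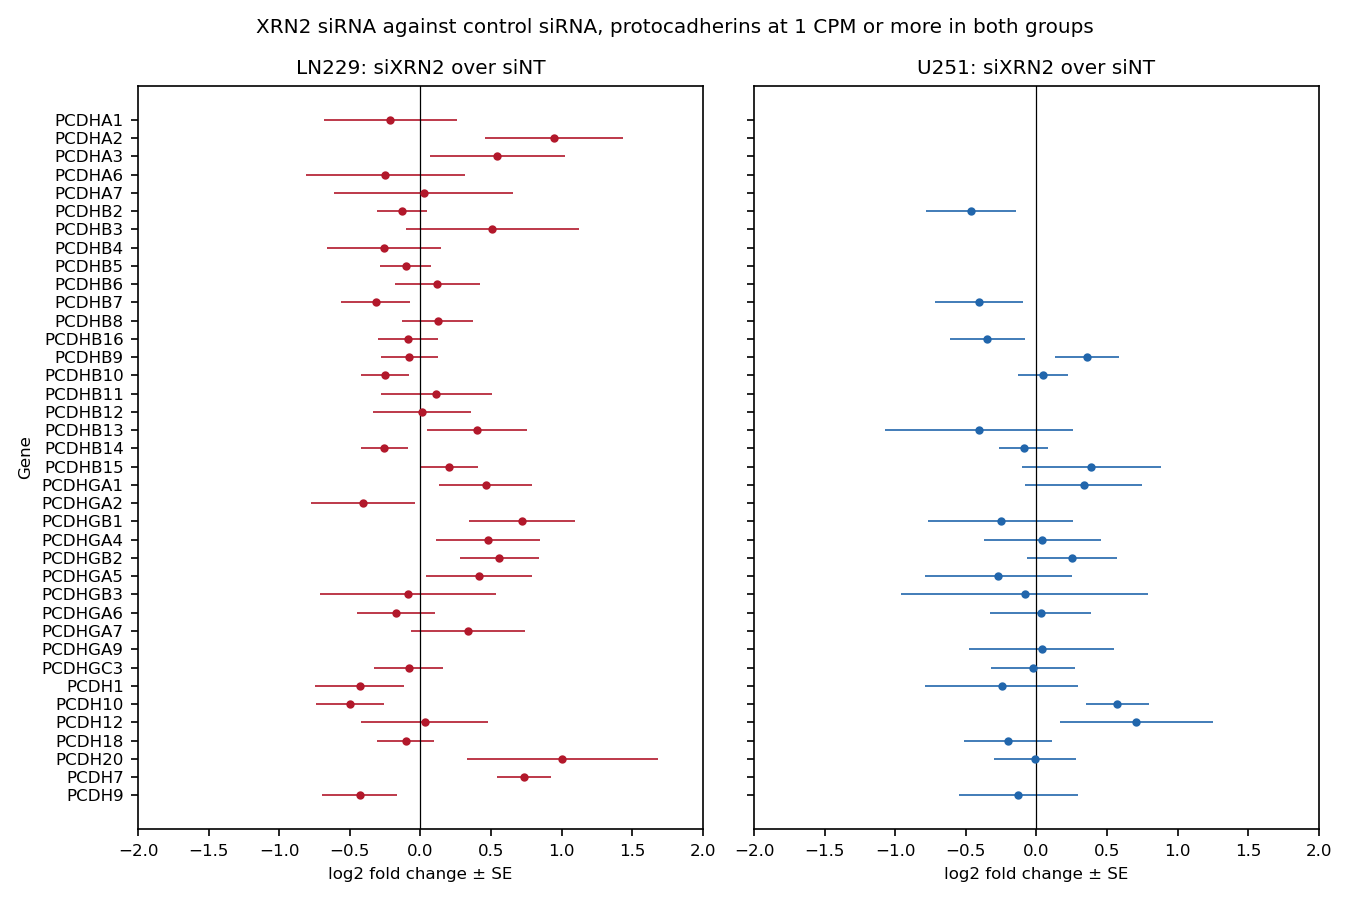
Log2 fold change with its SE for siXRN2 over siNT in LN229 (left) and U251 (right), for members with a mean of at least 1 CPM in both groups, 37 in LN229 and 23 in U251. No point passes the threshold, and the SE of most lies across or near 0.

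The member nearest to the threshold was PCDH7. It had 69.7 and 88.0 CPM in LN229 siXRN2, 41.8 and 52.7 in LN229 siNT and 43.5 and 53.4 in LN229 mock, and 0 reads in all U251 libraries. Both siXRN2 libraries lay above all 4 controls of the line, as for 2 of the 38 members and 16.0% of all tested genes. The log2 fold change was 0.73 against siNT (SE 0.19, edgeR adjusted p = 0.0650) and 0.70 against mock (SE 0.19, edgeR adjusted p = 0.102). It passed the threshold with DESeq2 (adjusted p = 0.0415) and with the mean of siNT and mock as the control (edgeR adjusted p = 0.0335). Intron reads of PCDH7 had a log2 fold change of -0.42 against siNT and 0.39 against mock (edgeR adjusted p = 0.622 and 0.707).

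PCDH10 had log2 fold changes of opposite sign in the lines and did not pass the threshold in either. In LN229 it had 26.2 and 16.5 CPM in siXRN2, 26.2 and 34.4 in siNT and 27.5 and 36.8 in mock. In U251 it had 53.2 and 56.4 CPM in siXRN2, 36.9 and 36.6 in siNT and 37.5 and 26.3 in mock. The siXRN2 libraries lay above all controls in U251, as for 4 of the 38 members and 13.8% of all tested genes (0 members and 10.6% of all genes lay below all U251 controls). In LN229 siXRN2 replicate 2 lay below all controls, while siXRN2 replicate 1 and siNT replicate 1 were both at 26.2 CPM (193 and 130 reads), a gap within counting error. With that near tie, 6 of the 38 members had both LN229 siXRN2 libraries below all controls, against 16.9% of all tested genes. Against siNT the log2 fold changes were -0.50 in LN229 and 0.57 in U251, and their difference was -1.07 (SE 0.33, edgeR adjusted p = 0.683). PCDH1 had 157 and 123 CPM in LN229 siXRN2, below the 184 to 233 CPM of the LN229 controls, and its U251 values against mock turned on 1 library, U251 mock replicate 2 at 19.5 CPM. PCDH9 had a log2 fold change of -0.85 against mock in LN229 (SE 0.26, edgeR adjusted p = 0.124). Without LN229 siNT replicate 1 and U251 mock replicate 2, the libraries that stood apart, 3 members were called in LN229 against mock: PCDH7 at 0.72, PCDH1 at -0.58 and PCDH9 at -0.82 (edgeR adjusted p = 0.0176, 0.0206 and 0.00765).

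The cluster sums did not differ from siNT past the threshold in either line. In the alpha and gamma sums, genes from place 11 on are held almost only by spliced reads. In LN229 the alpha sum was at 16.9 ± 0.407 CPM in siXRN2, 14.1 ± 0.624 in siNT and 14.8 ± 1.69 in mock (SD, n = 2 each). The beta sum was at 348 ± 18.4 CPM in siXRN2, 350.5 ± 61.2 in siNT and 391 ± 15.4 in mock, and the gamma sum at 136 ± 8.45, 111 ± 42.9 and 148 ± 4.32 CPM in the same order of groups. Against siNT, the log2 fold changes were 0.27 (SE 0.24) for alpha, -0.01 (SE 0.17) for beta and 0.29 (SE 0.23) for gamma, with edgeR adjusted p = 0.525, 0.992 and 0.479. The gamma value turned on which siNT library was used, at -0.03 without LN229 siNT replicate 1 and 0.75 (edgeR adjusted p = 0.0198) without replicate 2. In U251 the beta sum was at 65.8 ± 5.37 CPM in siXRN2, 69.005 ± 2.80 in siNT and 55.3 ± 14.5 in mock, and the gamma sum at 45.0 ± 2.94, 42.1 ± 1.71 and 36.2 ± 11.2 CPM. The alpha sum in U251 held too few reads to compare, with 7 over 6 libraries. Within the gamma exon-exon reads, PCDHGC3 took 80 and 82.7% in LN229 siXRN2, inside or just under the 80.5 to 85.3% of LN229 controls, and 67.8 and 68.8% in U251 siXRN2, inside the 57.8 to 77.9% of U251 controls.

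**Figure D5:**
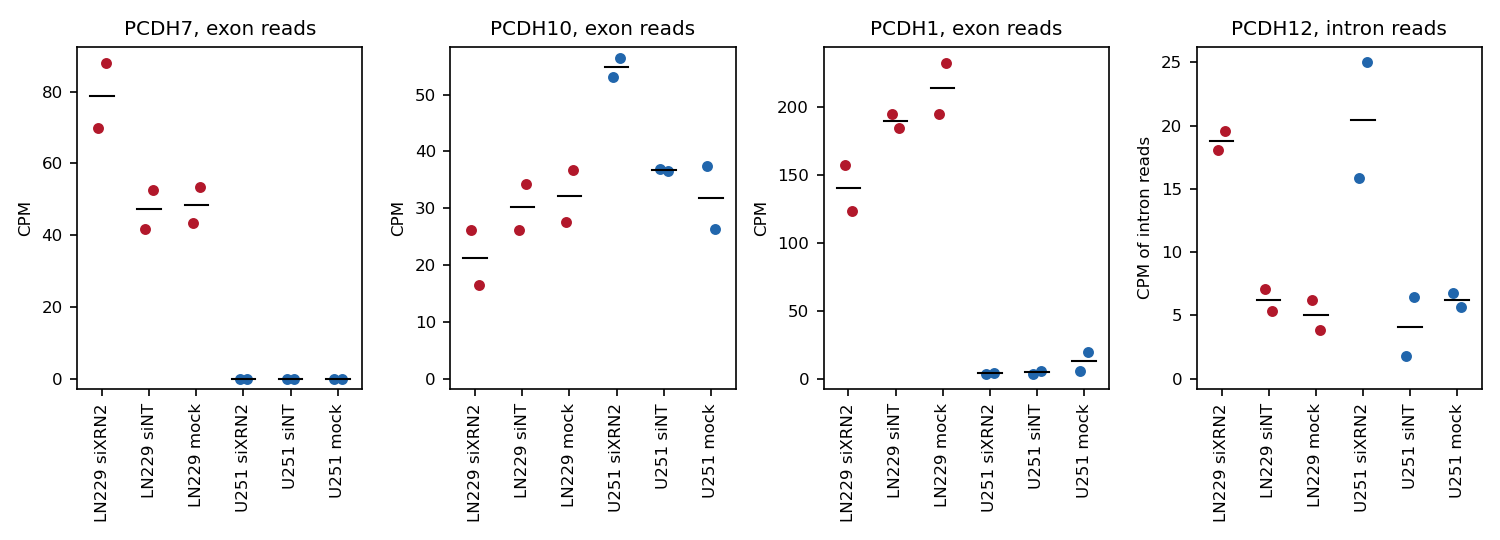
CPM by library for PCDH7, PCDH10 and PCDH1 (exon reads) and PCDH12 (intron reads), with LN229 in red and U251 in blue and a line at the mean of the 2 libraries. PCDH7 is at 0 in U251, PCDH10 is higher in U251 siXRN2 than in U251 controls, and PCDH12 intron reads lie higher in the 4 siXRN2 libraries than in the 8 controls.

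Intron reads of PCDH12 were more numerous in the siXRN2 libraries than in the controls, but neither they nor its exon reads were called within a line. In LN229 it had 12 and 10 intron reads in siXRN2, 2 and 3 in siNT and 4 and 3 in mock. In U251 it had 9 and 13 in siXRN2, 1 and 3 in siNT and 3 and 3 in mock. All 4 siXRN2 libraries lay above all 8 controls, and 62 of the 66 reads were unique. PCDH12 was chosen for this pattern, and the share of all genes that show it on intron reads was not worked out. Within LN229 the log2 fold changes of the intron reads were 1.62 against siNT and 1.88 against mock (edgeR adjusted p = 0.392 and 0.261), and within U251 2.31 and 1.68 (edgeR adjusted p = 0.774 and 0.500). In a fit on intron reads of 12444 genes, made after these values were seen, the mean over both lines of siXRN2 against siNT and mock was 1.87 on the log2 scale (SE 0.41, edgeR adjusted p = 0.0242). PCDH12 was the 1 call among 12 members tested, where 0.627% of all genes were called. Between the lines' controls, 10 of the 12 members were called on intron reads, all higher in LN229. Over all genes, 50.5% were called in either direction. PCDH1, PCDH7, PCDH9, PCDH18, PCDHA1, PCDHGA1 and PCDHGA2 had at most 6 intron reads in any U251 library, and PCDHGA4 and PCDHGB1 at most 10. They passed the filter on low counts only through LN229, which largely fixed their direction. For siXRN2 against siNT alone the PCDH12 value was 1.96 (SE 0.51, edgeR adjusted p = 0.129), where 0.113% of all genes were called. PCDH12 lies on the minus strand of chromosome 5, from 141943585 to 141969741. KIAA0141, on the plus strand, ends 1538 bases before it and runs towards it, and RNF14, also on the plus strand, overlaps 11414 of its bases. The libraries keep no strand, and from which gene these intron reads came was not tested.

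Other genes of the protocadherins' surroundings were read from 3 lists, beside the 34.9% of all genes called higher and 32.1% called lower in LN229 controls. Of 36 other cadherin superfamily genes, 24 were tested, and 9 were higher and 11 lower in LN229 controls. The 4 with the smallest p were CDH11, a mesenchymal cadherin at 48.0 ± 2.53 CPM in LN229 and 723 ± 89.7 in U251 controls (SD, n = 4 each), CDH4 (R-cadherin) at 0 to 1.44 CPM in LN229 and 270 to 302 in U251 controls, FAT3 with a log2 fold change of -5.78, and CELSR1, a planar polarity receptor, with 6.24. Of 26 regulators of protocadherin chromatin, 25 were tested, and 9 were higher and 11 lower in LN229. They included the silencing factors LRIF1 at 1.03 and SMCHD1 at -0.96, the neuronal gene repressor REST at -0.82 and the cohesin subunit RAD21 at -0.72 on the log2 scale. All 28 partners and signalling genes were tested, with 5 higher and 16 lower in LN229. The WAVE complex subunits CYFIP2 and WASF3 differed by -2.71 and -4.49, and the kinase FYN and the membrane protein MARCKS by -1.38 and -1.57. The 3 lists had medians of 0.06, -0.12 and -0.44, against 0.03 over all tested genes.

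After XRN2 siRNA, 1 cadherin gene of 24 and 1 partner gene of 28 were called in LN229 against siNT, near the 3.16% of all genes, and 1 cadherin gene of 24 against mock, where 1.29% of all genes were called. In U251 0 were called, where 0.00703% of all genes were called against siNT and 0.0492% against mock. CELSR3 had 8.41 and 11.05 CPM in LN229 siXRN2, 2.82 and 5.22 in siNT and 6.08 and 6.34 in mock. Its log2 fold change was 1.24 against siNT (SE 0.29, edgeR adjusted p = 0.0422). PTK2B, a kinase known to bind protocadherin tails, rose in LN229 by 1.24 against siNT (edgeR adjusted p = 0.0485). CDH13 fell by 0.97 on the log2 scale in LN229 against mock (edgeR adjusted p = 0.0374), with 130 and 93.3 CPM in siXRN2 and 253 and 186 in mock. Each of these calls was made against only 1 of the 2 controls. The 25 chromatin regulators had 0 calls in LN229 as well.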

How the data were processed

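RNA-seq libraries of LN229 and U251 cells were made with the TruSeq RNA v2 kit, per the labels' protocols; by its design that kit enriches RNA with a poly(A) tail and loses the strand. The authors deposited, for each of the 12 libraries, read counts per gene as whole numbers (exon, exon-exon and intron reads, each as total and as unique), per the file headers. GRCh37 and hg19 are named in the submitters' processing notes, but 96.8% of 57836 gene identifiers shared with GENCODE 29, and all 63 members, stood at their GRCh38 positions. The program that aligned reads and the one that counted them were not given in the sources used here.

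Groups came from the sample titles. Total exon counts were filtered with filterByExpr (minimum count 10, minimum total 15), which left 14232 genes, scaled by trimmed mean of M-values and fitted with 1 mean per group in edgeR 4.0.16 (robust quasi-likelihood, 6 residual degrees of freedom), with Benjamini-Hochberg adjustment over all tested genes. Fits were tested on simulated data. DESeq2 1.42.0, other scalings, filters and kinds of read, a replicate block and leaving out single libraries were alternatives. Every member past the filter could be named, with values by library for the calls, the most expressed members of each class and the C-type isoforms. Up to 4 called genes with the smallest p were named from each list. Further members were chosen after their values were seen. Exon-exon reads were taken as spliced reads. Members and lists were chosen with earlier results of these data known. Intervals cover counting error only.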

Additional observations from a re-analysis of the deposited data

Results flagged for a closer look

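PCDH10 was picked out because both siXRN2 libraries lay below both siNT libraries in LN229 and above both in U251. In LN229 this rests on a near tie, with siXRN2 replicate 1 and siNT replicate 1 both at 26.2 CPM. The difference of its log2 fold changes against siNT was -1.07 (SE 0.33), and it did not pass edgeR's quasi-likelihood test (adjusted p = 0.683). It ranged from -1.46 to -0.79 when single libraries were left out.

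PCDH12 was picked out because its intron reads, which the main comparisons do not use, lay above the control level in 4 of 4 siXRN2 libraries. No test within a line passed (edgeR adjusted p = 0.261 to 0.774). The log2 fold change over both lines was 1.87 (SE 0.41, edgeR adjusted p = 0.0242), and the highest control library held 4 reads. The fit over both lines was made after these values were seen. The gene the reads came from was not tested.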

How the results depend on the processing

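Among the 37 members called between the lines, 18 passed the filter only through LN229 and 1 only through U251, which largely fixed their direction. The other settings included leaving out single siXRN2 libraries, which are not part of this comparison. Of these 37 members, 792 of 799 values under other settings kept direction and call, 7 kept the direction and lost the call, and 0 reversed. PCDHGA4, PCDHGB3 and PCDH12 lost it: all 3 with siNT libraries alone (0.61, 1.72 and 1.22 on the log2 scale), PCDH12 also on intron reads (0.13), and PCDHGB3 without LN229 siNT replicate 2. The count of calls was 37 to 39 without single libraries, and 13 of 14 members tested on unique reads, 8 of 9 on exon-exon reads and 10 of 12 on intron reads (50.5% of all genes). These smaller counts come from fewer members tested, and in each of these fits most called members passed the filter only through a single line. Over all genes, 66.7% were called on unique reads and 57.4% on exon-exon reads.

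For LN229 siXRN2 against siNT, DESeq2, no filter on low counts and the mean of siNT and mock as the control each called 1 member, PCDH7, and leaving out single libraries gave 0 to 5. The 5, without LN229 siNT replicate 2, were PCDH7, PCDHB13, PCDHGB1, PCDHGA4 and PCDHGB2. Against mock, no filter called 4 in LN229 and 3 in U251, the fit without both libraries that stood apart (added after seeing the data) called 3 in LN229, and leaving out single libraries gave 0 to 0 in LN229 and 0 to 4 in U251. The 4, without U251 mock replicate 1, were PCDH1, PCDH10, PCDH20 and PCDHB7. The difference between the lines was called for 1 member (PCDH10) without a filter, and for 0 to 1 without single libraries (PCDHB13, without LN229 siNT replicate 2). The cause was not tested. Against siNT in U251 the count stayed at 0.

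Cluster sums near 0 changed sign. In LN229 against siNT, alpha was -0.0783 on unique reads and gamma -0.0713 on exon-exon reads and -0.0276 without both libraries that stood apart, where beta was -0.147. The LN229 beta value was 0.0631 on unique reads, 0.0118 with DESeq2 and 0.0119 with its size factors. The U251 beta value was 0.0619 on unique reads and 0.0916 with the mean of siNT and mock as the control. Without single libraries the ranges were 0.22 to 0.34 for alpha, -0.146 to 0.178 for beta and -0.0265 to 0.75 for gamma in LN229, and -4.43 to -1.38, -0.156 to 0.0123 and 0.0272 to 0.16 in U251. The line difference ranged from 5.57 to 7.27 for alpha, 2.46 to 2.73 for beta and 1.49 to 1.90 for gamma. The alpha sum passed the filter only through LN229, which largely fixed its direction. PCDH7 intron reads reversed to -0.42 in LN229 against siNT, but were at 0.39 against mock.

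Same-numbered libraries did not deviate together (correlations -0.04 to 0.07). With 2 libraries per group, this cannot exclude that the numbers pair the libraries. A replicate block called 35 members between the lines (PCDHGA4 at 0.80 and PCDHGB3 at 1.00 not called) and 1, PCDH7, for LN229 siXRN2 against siNT, and 0 in the other comparisons.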
